A study of Homo sapiens with 3 samples.

Results

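The unfolded protein response genes described here are 10 named genes, HSPA5, HSP90B1, PDIA4, SDF2L1, ERO1B, HERPUD1, DNAJB9, XBP1, ATF4 and DDIT3. They were taken by symbol from the 36601 genes of each library, and all 10 were present. The cells were stem cell-derived islets of the human embryonic stem cell line HUES8, an established line, measured by droplet single-cell RNA sequencing. Cells retained by magnetic beads carrying an antibody to CD49a (CD49a-positive), cells depleted of CD49a (CD49a-negative) and unsorted cells were each left to re-aggregate for 7 days and then dispersed. There was 1 library of each kind from 1 cell line, and the sources used here do not say whether the 3 libraries came from 1 differentiation. The magnetic sort does not give pure populations, and CD49a was selected 7 days before the RNA was measured.

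The unfolded protein response adjusts the endoplasmic reticulum to its load of secretory protein. The sensors IRE1 (gene ERN1), PERK (EIF2AK3) and ATF6 respond to unfolded protein. IRE1 splices XBP1 mRNA, PERK slows translation while favouring that of ATF4, and cleaved ATF6 enters the nucleus. Their targets include chaperones, disulfide-forming enzymes and degradation factors, and, on long activation, the pro-apoptotic factor DDIT3. Beta cells make proinsulin, which must fold and form disulfide bonds in this compartment, so the pathway is active in them as part of normal secretion. The counts add up all transcripts of a gene, so spliced XBP1, translation of ATF4 and cleavage of ATF6 were not measured.

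The transcription factors of the pathway are known to bind short promoter elements, and these were looked up in the RefSeq promoter windows of GRCh38.p14, from 250 bases before to 50 bases after each start. All 10 members had a window among 27305 genes. The ER stress response element, searched on both strands as CCAAT, 9 bases of any kind and CCACG, was found in HSPA5, HSP90B1, ERO1B and XBP1, which is 4 of 10 members, and in 25 of all genes (0.0916%). Of the other 21 genes with it, CALR, CANX, CRELD2 and PDIA6 are ER chaperones and foldases of the lists counted further on. Those lists do not hold every ER gene. The remaining genes with this element, such as ALG12, FICD, SERP1, FRG2, GLRA2, NLRP4 and TRIM5, were in none of them. Its second form, ATTGG, 1 base of any kind and CCACG, was found in SDF2L1 and HERPUD1 and in 19 of all genes (0.0696%), of which HYOU1 was the 1 list gene among the other 17. Neither the core TGACGTGG (0.927% of genes) nor the ATF4-type element TGATGNAAT (1.22%) matched any member's window. A match of letters is no evidence of binding, and a missing match says only that these letters are not in this window. The members were chosen as pathway genes and the elements as those of its factors, so these shares do not test the members. The matched stretches are printed because they are what 6 of the members share beyond their function; each is read 5′ to 3′ along its gene, and capitals mark the fixed letters, with a reverse-strand match reading CGTGG first.
HSPA5: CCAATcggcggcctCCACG
HSP90B1, farther from the start: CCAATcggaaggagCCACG
HSP90B1, nearer to the start: CGTGGtgcggcgcgATTGG
ERO1B: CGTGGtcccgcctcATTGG
XBP1: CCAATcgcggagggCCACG
SDF2L1: CGTGGaCCAAT
HERPUD1: ATTGGgCCACG

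Counting from the RefSeq transcription start, the HSPA5 element lay at -66 to -48, and the XBP1 element at -52 to -34. The HERPUD1 element lay at -117 to -107 and that of SDF2L1 at -188 to -178. The ERO1B element lay farthest out, at -243 to -225, and the HSP90B1 elements lay at -194 to -176 and at -89 to -71. By the GENCODE start of HSP90B1, 103930107 on the plus strand, both of its elements lie inside the gene, from 103930216 and from 103930321. Upstream sequence of HSPA5, XBP1 and HERPUD1 is given for the setting of these elements, ending before the RefSeq and GENCODE starts. The stretches of XBP1 and HERPUD1 therefore stop at the GENCODE start, short of the RefSeq start.
HSPA5, GRCh38.p14 chr9:125241344-125241593, minus strand: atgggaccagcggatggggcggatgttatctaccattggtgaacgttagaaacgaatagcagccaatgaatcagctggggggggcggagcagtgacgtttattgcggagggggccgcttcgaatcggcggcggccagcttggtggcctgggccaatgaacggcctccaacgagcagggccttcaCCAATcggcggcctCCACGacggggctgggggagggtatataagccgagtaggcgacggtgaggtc
XBP1, GRCh38.p14 chr22:28800598-28800819, minus strand: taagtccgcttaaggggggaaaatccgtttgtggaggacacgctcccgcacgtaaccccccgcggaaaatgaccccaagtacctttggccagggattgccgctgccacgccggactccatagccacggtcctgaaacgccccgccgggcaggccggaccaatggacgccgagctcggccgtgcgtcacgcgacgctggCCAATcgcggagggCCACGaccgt
HERPUD1, GRCh38.p14 chr16:56931892-56932047, plus strand: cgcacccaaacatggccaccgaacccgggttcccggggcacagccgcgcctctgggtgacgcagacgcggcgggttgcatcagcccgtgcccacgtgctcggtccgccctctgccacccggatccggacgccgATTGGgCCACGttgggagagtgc

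The libraries held 88397368 to 127119509 UMIs (unique molecular identifiers, which count RNA molecules). Of 9889 barcodes 6626 were kept as cells, those with 1000 genes or more and a mitochondrial share of 20% or less, with median depths of 36997 to 48538 UMIs. The filter removed 46.9% of CD49a-positive barcodes, against 23.0% of CD49a-negative and 19.7% of unsorted barcodes. Across libraries, 12 barcode sequences were shared and 13 kept cells carried one of them. Cells were put in classes by their leading hormone: INS-rich, GCG-rich and SST-rich with at least 3% of UMIs from that gene, and TPH1-rich with at least 0.03% and at least 5 UMIs. TPH1 encodes the enzyme that starts serotonin synthesis in enterochromaffin cells. INS-rich cells numbered 1565 in the CD49a-positive, 412 in the CD49a-negative and 782 in the unsorted library. Cells that met more than 1 rule were left out of the classes as mixed, and no doublet caller was run. Of the markers of each class, 4 of 8 (INS-rich), 6 of 7 (GCG-rich), 2 of 5 (SST-rich) and 6 of 7 (TPH1-rich) were highest in that class in every library. IAPP and PDX1 were highest in INS-rich cells, whereas the beta cell genes NKX6-1, PCSK1 and SLC30A8 were not, so the classes are called by their hormone and not as cell types.

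Levels are counts per 1000000 (CPM), here UMIs over all UMIs outside INS, GCG, SST and TPH1, so that the hormone itself does not dilute the rest. Classes were compared on UMIs summed per library and class, with edgeR's quasi-likelihood test, the library as a block and Benjamini-Hochberg adjustment over all tested genes, and a gene was called at an adjusted p under 0.05. Each class then has n = 3 sums, 1 per library, and the p-values measure only the spread between these 3 libraries. The 3 comparisons of INS-rich cells with another class share the same INS-rich sums.

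The members were higher in INS-rich than in TPH1-rich cells for 9 of 10 genes and lower for 0 of 10. Of all 18157 genes tested 19.0% were higher and 18.4% lower, and 26.6% were higher and 24.8% lower among the 4798 genes at least as abundant as DDIT3, the member with the lowest level. The members' median log2 fold change was 1.12, against 0.00 over all genes. ERO1B differed most, at 2.44, and DDIT3 least, at 0.20 with an adjusted p of 0.0997. Nuclear RNA also differed between the classes: the summed level of MALAT1 and NEAT1 was 12707 to 13723 CPM in INS-rich cells over the libraries, against 16016 to 18690.2 in GCG-rich, 18519.8 to 20169 in SST-rich and 15815 to 20462 in TPH1-rich cells, with no overlap. Without cells poor in MALAT1 (under 25% of their library median) 9, 7 and 9 members were higher over GCG-rich, SST-rich and TPH1-rich cells, against 9, 8 and 9 with them. The duct markers KRT19, CFTR and KRT7 summed to 45.8 to 53.8 in INS-rich cells, against 78.9 to 109.8 in GCG-rich, 125 to 146 in SST-rich and 52.1 to 69.1 in TPH1-rich cells, and their part in the results was not tested. Acinar and endothelial markers were each at 1.01 or less in every class.

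**Figure D1:**
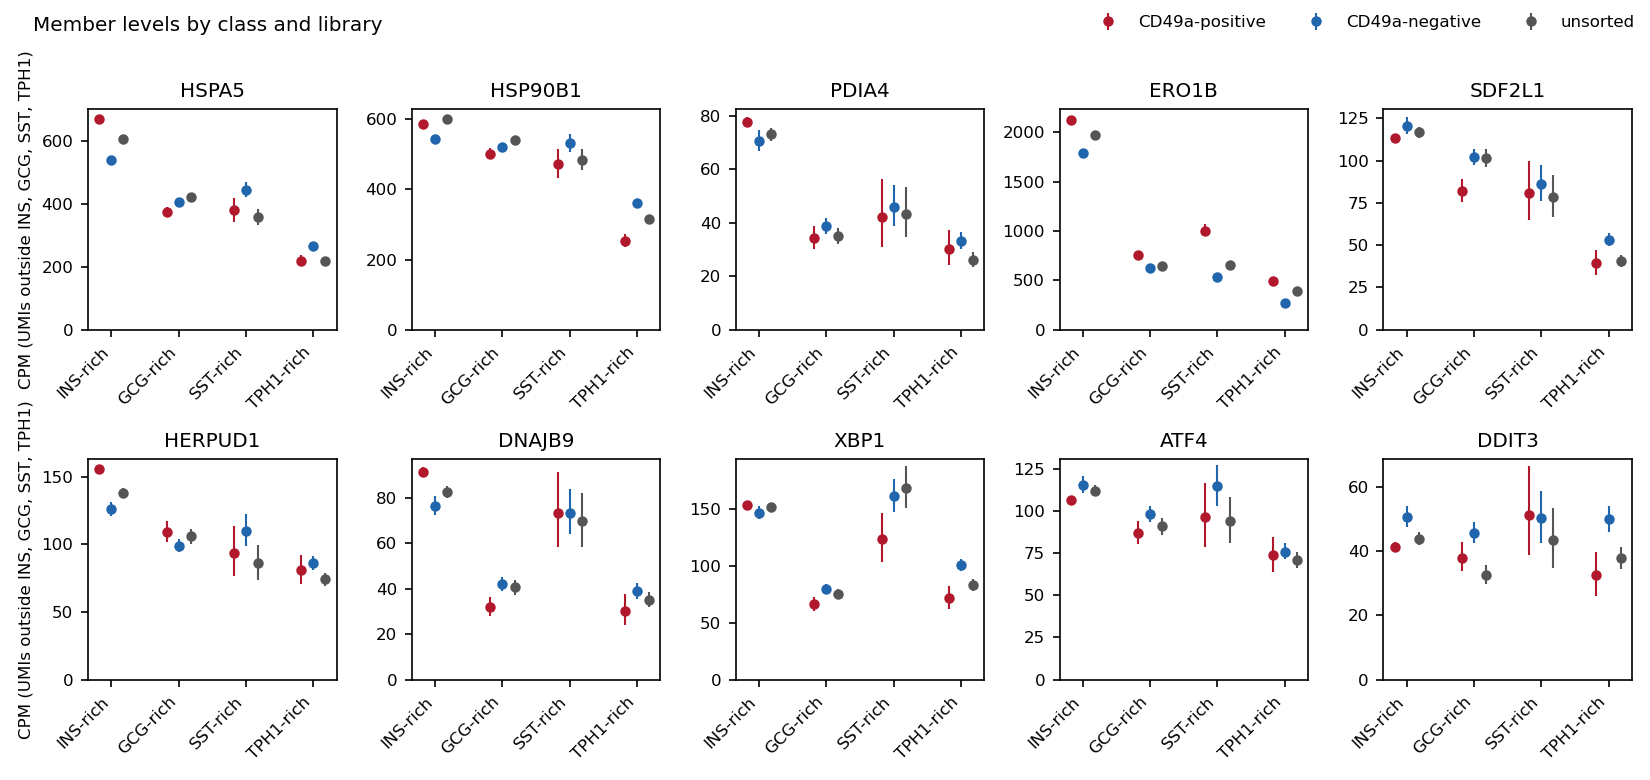
CPM (y axis, from 0) of each member in INS-, GCG-, SST- and TPH1-rich cells (x axis), with 1 point per library (red, CD49a-positive; blue, CD49a-negative; grey, unsorted) and 95% Poisson intervals of counting error. HSPA5 stands between 542 and 672 in INS-rich cells and between 219 and 267 in TPH1-rich cells, while the points of DDIT3 overlap in all 4 classes.

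Among the chaperones and foldases, HSPA5 (chromosome 9, 125234853 to 125241330, minus strand) encodes BiP, the Hsp70 of the ER, which holds folding proteins and also binds the sensors. Positions are those of the protein-coding genes in GENCODE 29 on GRCh38. HSPA5 stood at 672 CPM (95% Poisson interval 667 to 678) in CD49a-positive, 542 (531 to 553) in CD49a-negative and 607 (599 to 614) in unsorted INS-rich cells. In TPH1-rich cells it stood at 219 (202 to 237), 267 (258 to 276) and 219 (211 to 228) in the CD49a-positive, CD49a-negative and unsorted libraries. The ranges did not overlap, and the log2 fold change was 1.42 ± 0.11 (SE; edgeR adjusted p 6.89e-08). GCG-rich cells, at 403 ± 23.9 (SD, n = 3), and SST-rich cells, at 395 ± 45.9, lay between these classes and overlapped each other. Against them INS-rich cells were higher by 0.62 ± 0.11 (GCG-rich, edgeR adjusted p 0.000313) and 0.79 ± 0.11 (SST-rich, 9.82e-05) on the log2 scale.

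HSP90B1 (chromosome 12, 103930107 to 103953645, plus strand) encodes GRP94, the Hsp90 of the ER. It stood at 587, 543 and 602 CPM in INS-rich cells of the CD49a-positive, CD49a-negative and unsorted libraries, and at 253, 362 and 315 in their TPH1-rich cells, a log2 fold change of 0.95 ± 0.10 (edgeR adjusted p 2.07e-06). It was the member that INS-rich and GCG-rich cells held most nearly alike: GCG-rich cells stood at 502, 521 and 541 in the same libraries, and the difference of 0.17 ± 0.10 did not pass (edgeR adjusted p 0.197). PDIA4 (chromosome 7, 149003062 to 149028641, minus strand), a protein disulfide isomerase, stood at 77.7, 70.8 and 73.2 CPM in INS-rich cells of the CD49a-positive, CD49a-negative and unsorted libraries. No other class reached 50 in any library: the highest value was 46.1, in CD49a-negative SST-rich cells. Its log2 fold changes were 1.06 ± 0.08 over GCG-rich, 0.92 ± 0.11 over SST-rich and 1.36 ± 0.09 over TPH1-rich cells, and all passed. SDF2L1 (chromosome 22, 21642261 to 21644298, plus strand), a luminal partner of HSPA5 and its co-chaperones, averaged 117 ± 3.46 in INS-rich cells and 44.3 ± 7.66 in TPH1-rich cells (SD, n = 3 each), and rose by 1.45 ± 0.09 on the log2 scale. Over GCG-rich cells, which averaged 95.2 ± 11.4, it rose by 0.32 ± 0.08 (edgeR adjusted p 0.00716).

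ERO1B (chromosome 1, 236215555 to 236281985, minus strand) encodes an oxidase that recharges protein disulfide isomerases and is known for its high expression in the pancreatic islet. It stood at 2128, 1794 and 1977 CPM in INS-rich cells of the CD49a-positive, CD49a-negative and unsorted libraries. TPH1-rich cells of those libraries held 498, 270 and 392, GCG-rich cells 761, 623 and 648, and SST-rich cells 1005, 530 and 659. The lowest INS-rich value was above the highest value of every other class. The log2 fold changes of INS-rich cells were 1.56 ± 0.12 over GCG-rich, 1.65 ± 0.13 over SST-rich and 2.44 ± 0.13 over TPH1-rich cells. Outside INS-rich cells ERO1B was highest in the CD49a-positive library in each of these classes, whereas HSP90B1 was lowest in that library in each of them. The CD49a-positive SST-rich class held 28 cells. INS also stood at 8379 CPM in CD49a-positive TPH1-rich cells, 8.95% of its level in INS-rich cells of that library. That same share of the ERO1B level in INS-rich cells is 190, against the 498 measured, and the corresponding values are 123 against 270 in the CD49a-negative and 105.1 against 392 in the unsorted library. For HSPA5 they are 60.2 against 219, 37.3 against 267 and 32.3 against 219 in the CD49a-positive, CD49a-negative and unsorted libraries. These values assume that INS in TPH1-rich cells comes with RNA in the proportions of INS-rich cells. The part of RNA carried between cells was not tested.

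HERPUD1 and DNAJB9 act on proteins that fail to fold. HERPUD1 (chromosome 16, 56932048 to 56944863, plus strand), a membrane organiser of ER-associated degradation, stood at 156, 126 and 138 CPM in INS-rich cells of the CD49a-positive, CD49a-negative and unsorted libraries, and at 81.0, 86.1 and 74.0 in their TPH1-rich cells. It rose by 0.44 ± 0.09 over GCG-rich, 0.68 ± 0.11 over SST-rich and 0.85 ± 0.10 over TPH1-rich cells on the log2 scale. DNAJB9 (chromosome 7, 108569568 to 108574850, plus strand), an HSPA5 co-chaperone that also restrains IRE1, split the classes differently. It averaged 83.6 ± 7.46 in INS-rich and 72.2 ± 2.20 in SST-rich cells, but 38.2 ± 5.48 in GCG-rich and 34.9 ± 4.37 in TPH1-rich cells (SD, n = 3 each). INS-rich cells exceeded GCG-rich cells by 1.14 ± 0.11 and SST-rich cells by 0.40 ± 0.13 (edgeR adjusted p 4.20e-07 and 0.0330). The difference from SST-rich cells no longer passed with DESeq2 in place of edgeR (0.37), without MALAT1-poor cells (0.33) and under several other alternatives.

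The transcription factors were less uniform. XBP1 (chromosome 22, 28794555 to 28800597, minus strand) stood at 154, 147 and 152 CPM in INS-rich cells of the CD49a-positive, CD49a-negative and unsorted libraries, the narrowest spread of these 3. SST-rich cells held 124, 161 and 169 in the same libraries, so their range overlapped, and the difference of 0.17 ± 0.11 did not pass (edgeR adjusted p 0.292). XBP1 was higher than in GCG-rich cells by 1.07 ± 0.10 and than in TPH1-rich cells by 0.88 ± 0.10. ATF4 (chromosome 22, 39519695 to 39522685, plus strand), the factor of the PERK arm and of amino acid limitation, averaged 111 ± 4.63 in INS-rich and 73.6 ± 2.56 in TPH1-rich cells (SD, n = 3 each), with a log2 fold change of 0.66 ± 0.07. Its differences from GCG-rich and SST-rich cells were 0.30 ± 0.07 and 0.30 ± 0.08.

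DDIT3 (chromosome 12, 57516588 to 57521737, minus strand) encodes CHOP, which is linked to cell death under lasting ER stress. It stood at 41.4, 50.7 and 44.0 CPM in INS-rich cells of the CD49a-positive, CD49a-negative and unsorted libraries and at 32.5, just under 50 and 37.9 in their TPH1-rich cells. GCG-rich cells held 38.1, 45.8 and 32.5, and SST-rich cells 51.4, 50.3 and 43.4. The ranges overlapped at every step of the order of classes. It passed only against GCG-rich cells, by 0.26 ± 0.09 (edgeR adjusted p 0.0313). That call was lost with DESeq2 in place of edgeR (0.26), with a mitochondrial limit of 10% (0.23) and under several other alternatives. Over SST-rich cells the difference was 0.12 ± 0.12 (edgeR adjusted p 0.519).

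Against GCG-rich cells 9 of 10 members rose and 0 fell, where 18.4% of all genes were higher and 17.1% lower, and 25.5% higher and 15.7% lower among genes at least as abundant as the lowest member. Against SST-rich cells 8 of 10 rose and 0 fell, where 13.1% of all genes were higher and 9.44% lower, and 26.0% higher and 8.40% lower among the abundant genes. The median log2 fold change of the members was 0.53 (GCG-rich) and 0.54 (SST-rich), against -0.01 and 0.03 over all genes. Without the unsorted library, DDIT3 (0.16) and ATF4 (0.28) no longer passed against GCG-rich cells, nor did HSP90B1 (0.34), DNAJB9 (0.38) and ATF4 (0.23) against SST-rich cells. ATF4 (0.27) was also lost against SST-rich cells without the CD49a-positive library.

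**Figure D2:**
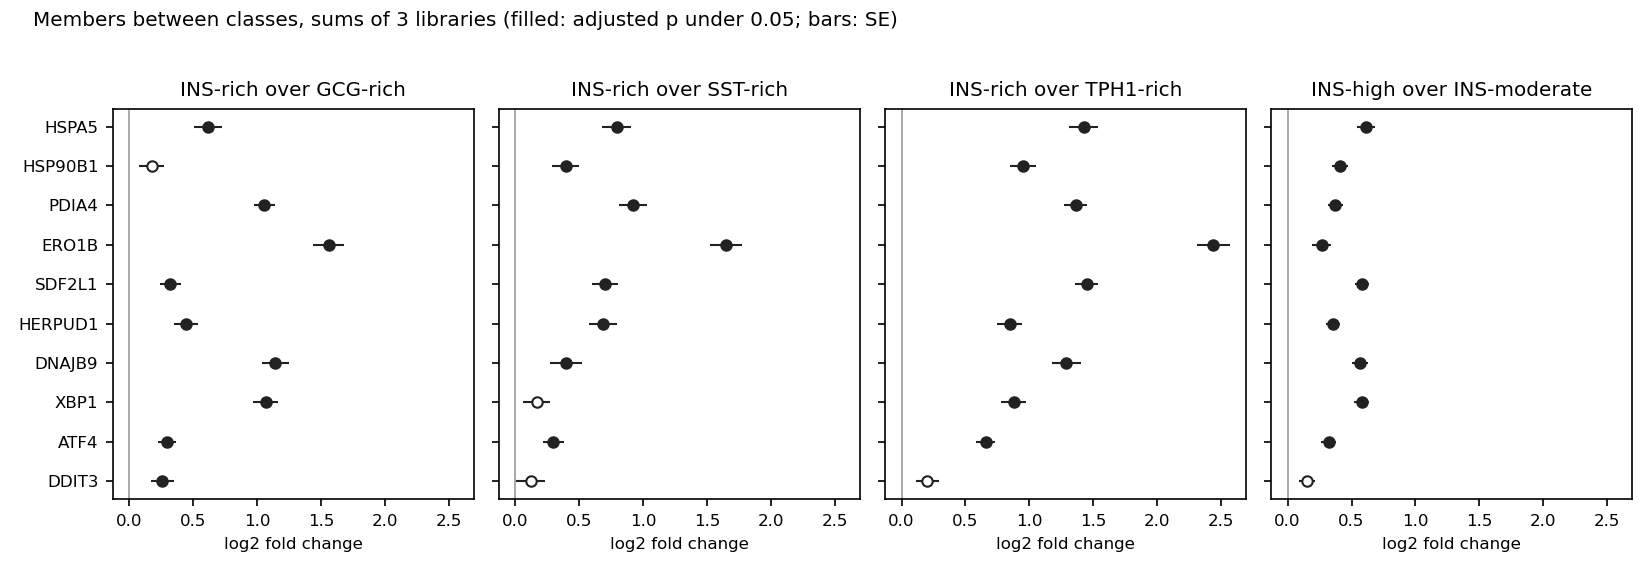
Log2 fold change (x axis) of each member (y axis) in 4 comparisons of summed UMIs over 3 libraries, with standard errors; filled points have an edgeR adjusted p under 0.05. ERO1B lies farthest to the right in the 3 comparisons of INS-rich cells with another class, at 1.56 to 2.44, but not between INS-high and INS-moderate cells, where it is at 0.27.

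Within INS-rich cells the members also followed the INS share of a cell. INS-high cells (at least 10% of UMIs from INS) were set against INS-moderate cells (3% to under 10%), again as sums per library. Of the 10 members 9 rose and 0 fell, while 12.4% of 17895 genes were higher and 10.2% lower, and 27.3% were higher and 19.2% lower among the 4661 genes at least as abundant as the lowest member. HSPA5 stood at 823, 772 and 758 CPM in INS-high cells of the CD49a-positive, CD49a-negative and unsorted libraries, against 610, 466 and 523 in INS-moderate cells of the same libraries. The ranges did not overlap, and the log2 fold change was 0.62 ± 0.07 (edgeR adjusted p 0.000461). XBP1 (0.58 ± 0.06), SDF2L1 (0.58 ± 0.05) and DNAJB9 (0.57 ± 0.06) rose by nearly as much. HSP90B1 rose by 0.41 ± 0.06, PDIA4 by 0.37 ± 0.06, HERPUD1 by 0.36 ± 0.05 and ATF4 by 0.32 ± 0.06.

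ERO1B, the member that differed most between classes, rose least here among those that passed, by 0.27 ± 0.08 (edgeR adjusted p 0.0291). INS-high cells held 2175, 2169 and 2180 CPM in the CD49a-positive, CD49a-negative and unsorted libraries, nearly the same in all 3. INS-moderate cells held 2109, 1670 and 1865, so the difference was smallest in the CD49a-positive library. ERO1B no longer passed without the CD49a-negative library (0.19) or without the unsorted library (0.26). Nor did it pass with library totals in place of TMM (0.21), with INS-high from 12% (0.25) or with no replicate block (0.26). DDIT3 stood at 44.7, 49.2 and 46.3 in INS-high cells and at 40.0, 51.2 and 42.6 in INS-moderate cells of the CD49a-positive, CD49a-negative and unsorted libraries. Its ranges overlapped, and the difference of 0.15 ± 0.06 did not pass (edgeR adjusted p 0.113). It did pass without the CD49a-negative library (0.20), with a mitochondrial limit of 10% (0.22) and with INS-high from 12% (0.22).

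INS-high and INS-moderate cells also differed in MALAT1, a nuclear RNA whose loss marks barcodes poor in nuclear RNA. MALAT1 was under 25% of its library median in 34.3%, 34.3% and 21.7% of INS-high cells of the CD49a-positive, CD49a-negative and unsorted libraries, against 13.4%, 16.4% and 9.11% of INS-moderate cells. Without such cells all 10 members passed, DDIT3 at 0.18. What part remaining differences of this kind have in the results was not tested.

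The whole range of INS shares, from under 1% to 15% and above, was read in kept cells outside the GCG-, SST- and TPH1-rich classes. Mixed cells and cells of no class were thus included. The CD49a-negative library had 247 cells at 3 to 6% and 161 at 6 to 10%, against 275 INS-moderate cells. Below 3% no cell was INS-rich, so these bins held only cells of no class or mixed cells. The part of the kind of cell in differences between bins was not tested. Every member was higher in the top bin than in the 1 to 3% bin in each library. The smallest ratio was 1.04-fold, for DDIT3 in the CD49a-negative library, and the share of all genes that rose so was not counted. HSPA5 stood at 301, 334, 514, 677, 799 and 924 CPM in the CD49a-positive library from the lowest to the highest of the 6 bins (edges at 1, 3, 6, 10 and 15%). It stood at 309, 392, 419, 526, 708 and 914 in the CD49a-negative library and at 289, 354, 458, 590, 710 and 840 in the unsorted library. Each step up in INS share held a higher level in all 3 libraries. The top bin stood above the 1 to 3% bin 3.26-fold in the CD49a-positive, 2.20-fold in the CD49a-negative and 2.44-fold in the unsorted library for SDF2L1, and 2.48-, 2.44- and 2.58-fold in them for XBP1. The same ratios were 2.76-, 2.40- and 2.71-fold for DNAJB9 and 2.77-, 2.33- and 2.37-fold for HSPA5.

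ERO1B and DDIT3 departed from this course in different ways. ERO1B reached 1815 CPM already at 1 to 3% INS in the CD49a-positive library, against 982 in the CD49a-negative and 1297 in the unsorted library. All 3 libraries met at 2156 to 2167 in the 10 to 15% bin, and stood slightly lower, at 2030 to 2085, in the top bin. DDIT3 stood at 37.8 in the 1 to 3% bin and 52.0 in the top bin of the CD49a-positive library, 57.3 and 59.4 in the CD49a-negative library, and 40.5 and 50.5 in the unsorted library. Its course was not steady in the CD49a-negative library, where the 10 to 15% bin held 45.8. These are single sums per bin with no test, and the bins differed in depth: median UMIs were lowest at the top in the CD49a-negative library, at 18926.5, against 52908 at 6 to 10%.

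**Figure D3:**
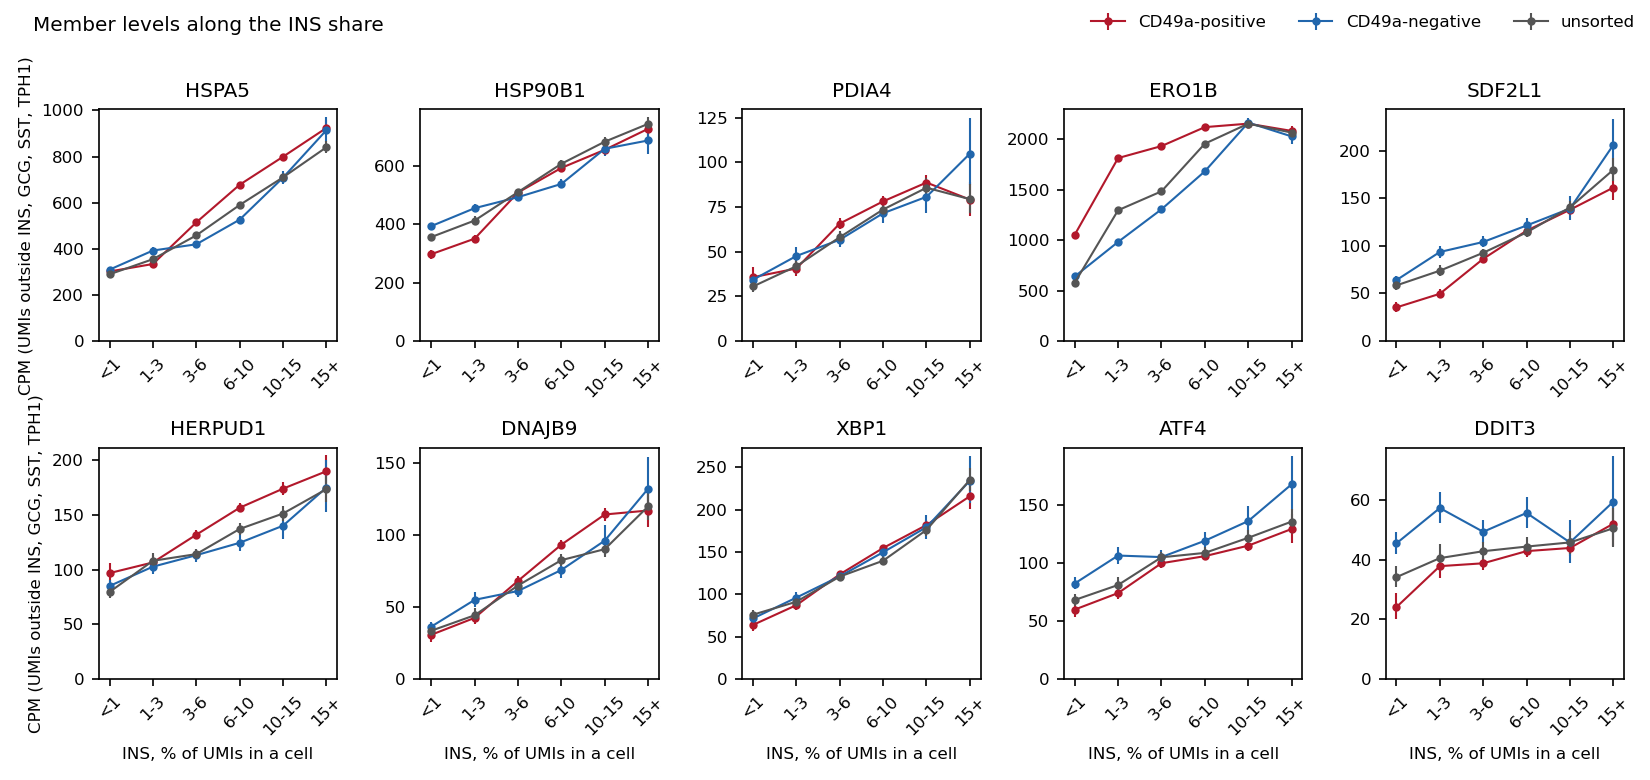
CPM (y axis, from 0) of each member in 6 bins of the INS share of a cell (x axis), with 1 line per library (red, CD49a-positive; blue, CD49a-negative; grey, unsorted) and 95% Poisson intervals of counting error. The bins include mixed cells and cells of no class, but no GCG-, SST- or TPH1-rich cells. HSPA5 lies between 840 and 924 in the top bin and between 289 and 309 in the lowest, ERO1B levels off near 2156, and DDIT3 stays between 24.1 and 59.4.

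The libraries were also compared over all kept cells. Each group had a single library and so no test, and a difference of at least 1.5-fold after adding 10 CPM to both levels was taken as a rule of size. Only ERO1B passed it, between the CD49a-positive and the CD49a-negative library, at 1870 and 916 CPM, 2.04-fold (95% interval of counting error 2.02 to 2.06). By this rule 1.23% of 18629 eligible genes were higher and 1.25% lower. Against the unsorted library no member passed, and 0.155% of genes were higher and 0.465% lower in the CD49a-positive, and 0.076% higher and 0.109% lower in the CD49a-negative library. HSPA5 stood at 590.5 CPM in the CD49a-positive and 405 in the CD49a-negative library (1.46-fold), with 468 in the unsorted library. DNAJB9 stood at 79.2, 53.7 and 61.8 in the CD49a-positive, CD49a-negative and unsorted libraries. DDIT3 was the member with the opposite order, 40.6 in the CD49a-positive, 49.6 in the CD49a-negative and 40.7 in the unsorted library, 0.82-fold (0.78 to 0.85) between the sorted libraries. INS-rich cells made up 65.4% of kept cells in the CD49a-positive, 20.9% in the CD49a-negative and 34.7% in the unsorted library.

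Within INS-rich cells no member passed 1.5-fold between any 2 libraries. From CD49a-positive to CD49a-negative the folds were 1.24 for HSPA5 (1.21 to 1.27), 1.23 for HERPUD1, 1.19 for DNAJB9 and 1.19 for ERO1B, and 0.92 for ATF4 and 0.82 for DDIT3 (0.76 to 0.88). These intervals cover counting error only. By the same rule 0.151% of 17265 genes were higher and 0.324% lower. Over the unsorted library the shares were 0.00579% and 0.0868% for CD49a-positive cells, and 0.0822% and 0.0316% for CD49a-negative cells.

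The wider pathway was described by fixed lists of other genes, counted in the same fits. Of all genes tested, 19.0%, 18.4%, 13.1% and 12.4% were higher over TPH1-rich, GCG-rich, SST-rich and INS-moderate cells. Among genes at least as abundant as DDIT3 these shares were 26.6%, 25.5%, 26.0% and 27.3%. Without the unsorted library 3313 instead of 6788 genes were called over TPH1-rich cells, and 1504 instead of 4048 over INS-moderate cells. List counts given without a library are therefore not to be set against these shares. All 15 ER chaperones and foldases rose in INS-rich over TPH1-rich cells, with a median log2 fold change of 0.82. They ranged from ERO1A, the widely expressed relative of ERO1B, at 0.35 ± 0.07 and SIL1, an HSPA5 exchange factor, at 0.53 ± 0.07, to the disulfide isomerases P4HB at 1.32 ± 0.08 and PDIA6 at 1.45 ± 0.09. PDIA6 stood at 224, 200 and 217 CPM in INS-rich cells of the CD49a-positive, CD49a-negative and unsorted libraries and at 83.9, 87.8 and 74.1 in their TPH1-rich cells. The genes of the list with a promoter match to these elements were CALR (0.82), CANX (0.70), CRELD2 (0.95), HYOU1 (0.82) and PDIA6. Since all 15 genes rose, these had to be among them, so the count says nothing about the elements. Of the genes for entry into the ER, 14 of 16 rose, with SSR4 at 1.31 ± 0.09 and SSR1 at 1.03 ± 0.09, both subunits of the translocon-associated complex. SEC62 (-0.00) and SRP14 (0.18) did not pass. Without the unsorted library 14 chaperones and 12 entry genes rose, ERO1A (0.35) being the chaperone lost, and SRP14 passed without the CD49a-negative library (0.35).

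Degradation, sensor and target genes were counted in the same way. Of 13 genes of ER-associated degradation 8 rose and 0 fell. EDEM2, a mannosidase-like factor that marks proteins for disposal, rose by 0.92 ± 0.13, while SEL1L at 0.15 and DERL3, near 0 in both classes, at 0.90 did not pass. Of the 6 genes of the sensor list 4 rose, ERN1 by 0.79 ± 0.09 and EIF2AK3 by 0.57 ± 0.09, whereas ATF6 (0.01) and ATF6B (-0.18) did not pass. That list also holds MBTPS1 and MBTPS2, which encode proteases that cleave ATF6 and are not sensors themselves. ATF6B passed as lower with library totals in place of TMM (-0.23), with the 4 hormone-class genes kept in the counts (-0.19), without MALAT1-poor cells and without the 5% of cells with most UMIs (-0.22 and -0.21). Of 21 tested targets of ATF4 and DDIT3, 14 rose and 0 fell, led by the cystine transporter subunit SLC7A11 (1.49 ± 0.26) and the lipoprotein receptor VLDLR (1.06 ± 0.08). TRIB3 (0.11) and PPP1R15A (0.08), textbook DDIT3 targets, did not pass. Without the unsorted library the genes that rose were 3 of the degradation list, 2 of the sensor list and 8 of the target list.

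Lists outside the ER were counted beside these. Of 12 cytosolic and mitochondrial heat shock genes 2 rose (16.7%, against 19.0% of all genes) and 0 fell. Those that rose were the mitochondrial chaperonins HSPD1 (0.46 ± 0.08) and HSPE1 (0.46 ± 0.09), while HSPA1A (-0.22) and HSP90AA1 (-0.21) did not pass. Of 12 immediate early genes, which respond to dissociation and other stimuli, 9 rose over TPH1-rich cells, with IER3 at 1.89 ± 0.20 and FOS at 1.26 ± 0.16, and JUND (0.13) and FOSB (0.02) did not pass. HSP90AA1 was lower past the threshold without the CD49a-positive library (-0.38), and JUND higher without the CD49a-negative library (0.32). Over GCG-rich cells 10 of these 12 immediate early genes fell and 1 rose, where 17.1% of all genes were lower. The part of dissociation in the members' values was not tested. Against GCG-rich cells 8 of 15 chaperones rose and 1 fell, as did 9 and 0 of 16 entry genes, and against SST-rich cells 12 of 15 chaperones and 4 of 16 entry genes rose and 0 fell. For the entry genes that count is a share near the 26.0% of abundant genes that were higher over SST-rich cells. Without the unsorted library 6 of the entry genes rose over GCG-rich cells, and 3 chaperones and 2 entry genes over SST-rich cells.

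Between INS-high and INS-moderate cells, 12 of 15 chaperones and 15 of 16 entry genes rose and 0 fell, with medians of 0.30 and 0.34, against 0.00 over all genes. SSR4 rose by 0.69 ± 0.06, to 934, 1052 and 1049 CPM in INS-high cells of the CD49a-positive, CD49a-negative and unsorted libraries, against 608, 705 and 636 in INS-moderate cells. The prolyl isomerase PPIB rose by 0.54 ± 0.06, PDIA6 by 0.51 ± 0.06 and the translocon subunit SEC61B by 0.41 ± 0.06. SIL1 (-0.02), DNAJC10 (0.15) and SEC63 (0.05) did not pass, whereas SEC61A1 rose by 0.20 ± 0.06. None of the 6 genes of the sensor list passed: they ranged from -0.08 for ATF6 and -0.06 for EIF2AK3 to 0.10 for both MBTPS2 and ATF6B. Of the degradation genes 5 of 13 rose (38.5%, against 27.3% of abundant genes). EDEM2 rose by 0.41 ± 0.07, while EDEM3 (0.00) and DERL3 (0.72) did not pass. Without the unsorted library 6 chaperones, 7 entry and 2 degradation genes rose, and SEC61A1 (0.16) and SEC61B (0.40) no longer passed. Without the CD49a-positive library 2 degradation genes rose.

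Of the ATF4 and DDIT3 targets 11 of 21 rose and 0 fell between these cells. ATF3, a stress-induced transcription factor, stood at 13.8, 13.4 and 37.1 CPM in INS-high cells of the CD49a-positive, CD49a-negative and unsorted libraries, against 8.42, 3.27 and 4.53 in INS-moderate cells, 1.84 ± 0.34 on the log2 scale (edgeR adjusted p 0.00393). The unsorted INS-high cells stood apart from the others, and the value was 1.14 without that library, 2.81 without the CD49a-positive one and 1.11 without the 5% of cells with most UMIs, past the threshold each time. SLC3A2, a chain of amino acid transporters, rose by 0.50 ± 0.05, and CEBPG (-0.04) and ASNS (0.00), both induced by ATF4 under amino acid limitation, did not pass. Of the heat shock genes 6 rose, HSPA8 by 0.40 ± 0.06 and HSP90AA1 by 0.30 ± 0.06, 1 fell, HSPB1, by 0.43 ± 0.13, and BAG3 (0.11) did not pass. Of the immediate early genes 5 of 12 rose, JUN by 0.62 ± 0.09 and IER3 by 0.64 ± 0.11, and NR4A1 (0.13) and FOSB (0.00) did not pass. Without the unsorted library 4 targets and 1 heat shock gene rose, and without the CD49a-positive library 5 targets, 2 heat shock genes and 2 immediate early genes. HSP90AA1 lost its call in both cases (0.30 and 0.26) and IER3 in the second (0.52). Without the CD49a-negative library 10 immediate early genes rose and HSPB1 (-0.26) no longer passed.

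**Figure D4:**
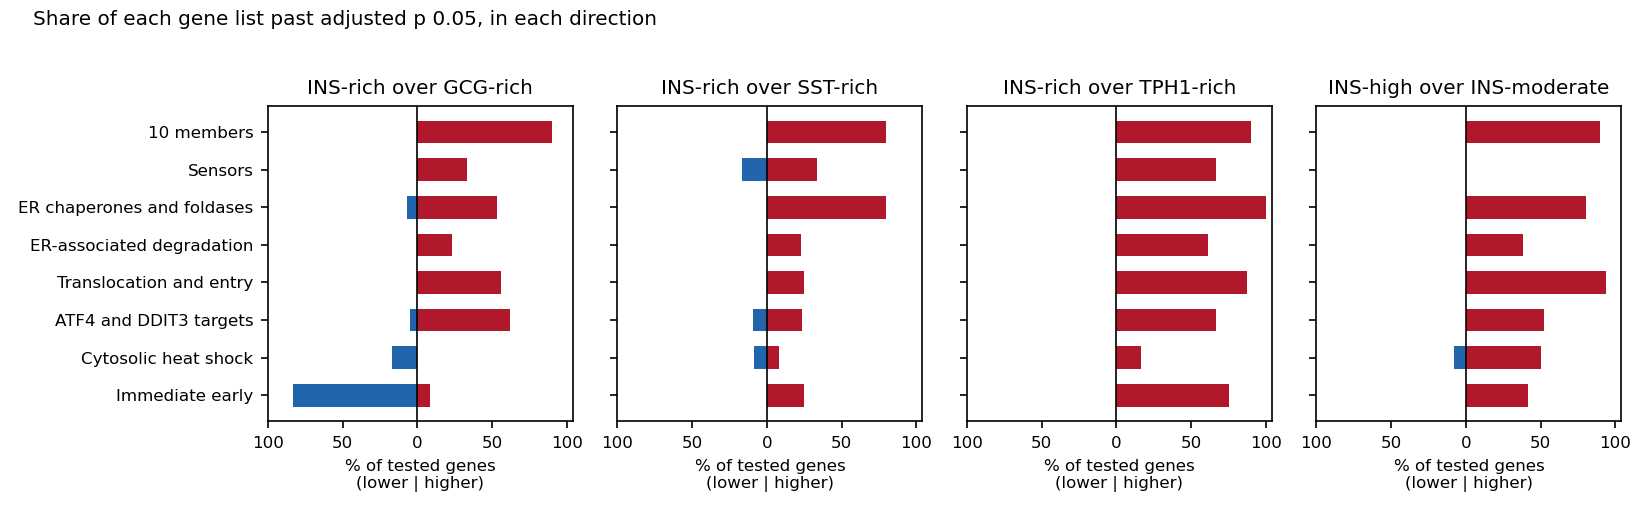
Percentage of tested genes (x axis; bars to the right higher, to the left lower, at an edgeR adjusted p under 0.05) for the 10 members and 7 fixed lists (y axis) in 4 comparisons. Higher chaperones were 15, 8, 12 and 12 of 15 over TPH1-rich, GCG-rich, SST-rich and INS-moderate cells. Higher entry genes were 14, 9, 4 and 15 of 16 in the same order. The sensor list has no bar between INS-high and INS-moderate cells. Immediate early genes are mostly lower in INS-rich than in GCG-rich cells.

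Variation among single INS-rich cells was described after thinning each cell to 10000 UMIs outside INS, GCG, SST and TPH1, which kept 1305 CD49a-positive, 372 CD49a-negative and 727 unsorted cells and left out 260, 40 and 55 shallower cells. The 10% of cells with most DDIT3 held 49.2%, 46.5% and 45.4% of its UMIs in the CD49a-positive, CD49a-negative and unsorted libraries, against 24.1%, 26.0% and 23.3% for HSPA5, a share that depends on the level of a gene. DDIT3 averaged 0.37 to 0.46 UMIs per thinned cell, and HSPA5 5.87 to 6.92. Spearman's rho with the INS share was 0.36, 0.45 and 0.41 for HSPA5 in the CD49a-positive, CD49a-negative and unsorted libraries, and 0.07, 0.03 and -0.03 for DDIT3, where sparse counts leave little to read.

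Pairs of members were compared by Pearson's r of thinned log levels across cells, averaged over the 3 libraries. These correlations describe cells that share a library and carry no test. They also depend on the level of a gene, since sparse counts lower r. HSP90B1 averaged 5.38 to 6.05 UMIs per thinned cell, against 1.04 to 1.12 for ATF4 and 0.37 to 0.46 for DDIT3. HSPA5 and HSP90B1 were the closest pair, at 0.39 (0.36, 0.41 and 0.40 in the CD49a-positive, CD49a-negative and unsorted libraries). HSPA5 followed with SDF2L1 (0.23) and DNAJB9 (0.21). ERO1B varied apart from them, with an r to HSPA5 of -0.06, 0.08 and 0.08 in those libraries and to SDF2L1 of -0.08 on average. ATF4 and DDIT3, both at low counts, reached 0.08.

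**Figure D5:**
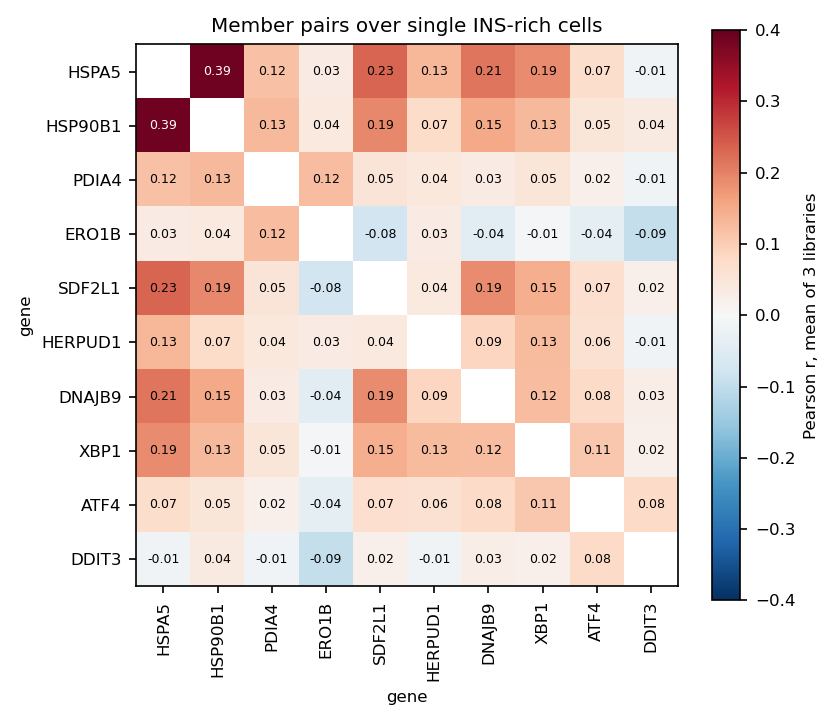
Pearson's r of thinned log levels between members (both axes) across single INS-rich cells, as the mean of 3 libraries (colour scale and printed values). HSPA5 and HSP90B1 share the darkest cell at 0.39, and the rows of ERO1B and DDIT3 stay pale. Sparse counts lower r, and DDIT3 had the lowest level of the members.

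Among 9595 genes found in at least 10% of thinned cells in every library, the 5 most like HSPA5 were PPIB (0.39), HSP90B1 (0.39), SCG5 (0.35), CD63 (0.33) and SSR4 (0.33). PPIB and SSR4 belong to the chaperone and entry lists above, SCG5 is a secretory granule protein and CD63 a membrane protein of late endosomes and granules. For DDIT3 the highest values were low: RPS28 (0.20) and RPS12 (0.18), which encode ribosomal proteins, OAZ1 (0.17) and FTH1 (0.17). The nearest genes of ERO1B, looked up after its values were seen, were CCSER1 (0.59), NBEA (0.47), TMEM196 (0.47), CADPS (0.46) and PCDH7 (0.45), none of them in the lists. Across the same cells ERO1B had a positive Spearman's rho with MALAT1, of 0.14, 0.29 and 0.14 in the CD49a-positive, CD49a-negative and unsorted libraries, and SDF2L1 a negative one, of -0.18, -0.25 and -0.20. The part of nuclear RNA in the ERO1B values was not tested.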

How the data were processed

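The authors deposited raw UMI counts for every gene and barcode. Per the submitters' processing notes, the tool was Cell Ranger 7.1.0 and the build GRCh38. The kit's end, the counting of intronic reads and the treatment of reads shared with pseudogenes are not given in the sources used here. All 3 libraries were used, with 88397368 to 127119509 UMIs each. Feature and barcode tables were used for names only.

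UMIs were summed per library and class and tested with edgeR 4.0.16 in R 4.3.3 (TMM scaling, filterByExpr, library as block), leaving INS, GCG, SST and TPH1 out of counts and library sizes. The block rests on the design, since classes of a library come from the same cells in culture. Intervals are exact Poisson at 95% and, like floors, cover counting error only. Other work used Python 3.11.15, numpy 2.4.6, scipy 1.17.1, pandas 2.3.3 and matplotlib 3.10.9, with seed 0. The alternatives were other scalings, filters, class limits and cell sets, DESeq2 1.42.0, no block, and each library left out. On simulated data the INS-rich over TPH1-rich fit (17675 genes) recovered 80% of genes changed 1.5-fold and 100% of those changed 3-fold, and the INS-high over INS-moderate fit (17939 genes) 70% and 100%. The simulation had the same spread for every gene, no library effect and equal means between classes apart from the changed genes. Those were drawn only from the better counted genes, so these rates are not the power of the fits to the real data.

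The members and lists were chosen with earlier results of these data known. All members are named. From each list the genes with the 2 highest and 2 lowest log2 fold changes over TPH1-rich and INS-moderate cells are named, and the 5 genes most like HSPA5 and DDIT3, except a few that are not reported here. NUPR1 did not pass the filter. Promoter sequences are from RefSeq and positions from GENCODE 29, matched by gene identifier, which may not be the release behind the counts. Protein sequences were not used here.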

Additional observations from a re-analysis of the deposited data

Results flagged for a closer look

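DDIT3 was also measured in barcodes left out for having over 20% mitochondrial UMIs, which enter no comparison above. In CPM outside mitochondrial genes and INS, GCG, SST and TPH1, it stood at 80.6 (95% Poisson interval 68.0 to 94.8) in 130 such CD49a-positive barcodes, against 44.7 in kept cells. It stood at 76.5 (65.0 to 89.6) in 178 such CD49a-negative barcodes, against 54.2 in kept cells, and at 58.3 (49.2 to 68.5) in 187 such unsorted barcodes, against 44.6 in kept cells. HSPA5 went the other way: 441, 250 and 294 in these barcodes of the CD49a-positive, CD49a-negative and unsorted libraries, against 650, 442 and 513 in kept cells. The barcodes were shallower, with median depths of 10859 to 12048 UMIs, and their median INS share was 1.65%, 0.28% and 0.40% in the same libraries, against 6.06%, 0.88% and 1.69% in kept cells.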

How the results depend on the processing

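No member was lower past the threshold in any class comparison under any alternative run. With library totals in place of TMM, 5 members (HSPA5, PDIA4, ERO1B, SDF2L1 and HERPUD1) were higher in INS-rich than in SST-rich cells instead of 8, DDIT3 stood at -0.051 and XBP1 at -0.0028, and the median of all genes moved from 0.03 to -0.14. The share of called genes that were higher then was 30.6% instead of 58.1% (over SST-rich) and 37.6% instead of 54.9% (INS-high over INS-moderate). With no replicate block, so that classes of a library are no longer paired, 5 members passed over SST-rich cells, 6 over GCG-rich, 9 over TPH1-rich and 7 over INS-moderate cells, and the genes called were 2724 over SST-rich cells (4091 with the block) and 1413 over INS-moderate cells (4048 with it). DESeq2 called 2024 genes there. Leaving out each library in turn gave 5 to 8 members higher over SST-rich cells, and 3538 to 5988, 2052 to 3554, 3313 to 6333 and 1435 to 5595 genes called over GCG-rich, SST-rich, TPH1-rich and INS-moderate cells; the fewest came without the unsorted library, except over INS-moderate cells, where they came without the CD49a-positive library. ERO1B also passed 1.5-fold in the CD49a-positive over the unsorted library with each cell weighted equally, the 1 member to do so. Of 560 member tests under alternatives, 523 kept their direction and side of the threshold, 30 lost it, 5 gained it and 2 reversed. Of the list genes with the most extreme values, 28 results had passed, and 7 of these lost their call under at least 1 alternative and 0 reversed; of the 28 that had not, 17 changed sign under at least 1 alternative and 0 passed after it, while 6 passed with the same sign, ATF6B under 4 alternatives, DERL3 with class limits of 2% and 0.02%, DNAJC10 with INS-high from 8%, and SRP14, JUND and HSP90AA1 without the CD49a-negative or CD49a-positive library or with class limits of 5% and 0.05%. Where not stated, the cause was not tested. DDIT3, at under 0.5 UMIs per thinned cell, is the member that depth limits most.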
